A study of Bos taurus with 6 samples.

Results

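The genes of sterol and fatty acid synthesis were followed in bovine primordial follicles (PMF), the resting follicles each an oocyte wrapped in a layer of flat pre-granulosa cells. The 34 genes were chosen by their known roles in making, moving and sensing cholesterol and in making fatty acids, and 32 of them could be matched to transcripts of the data, out of 23704 genes matched in all. FASN and STARD4 had no matched transcript and have no value here. By role, the matched genes were 8 of the mevalonate pathway, 11 of the steps from squalene to cholesterol, 5 regulators, 5 of fatty acid synthesis and 3 of cholesterol export and sterol-responsive control.

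RNA was sequenced from pools of mechanically isolated PMF, with 3 libraries retrieved after collection (T0) and 3 after 16 h of culture (T16). By the study's methods, ovaries came from Holstein Friesian dairy cows in the second year of life, and isolated PMF had 1 h of recovery before lysis, in medium with insulin, transferrin, selenite, FSH and fatty acid-free albumin. The culture given to the T16 pools is not described in the sources used here, nor is it stated whether pools shared animals, so the tests measure the spread between pools. The labels name no transgene or drug treatment.

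Cells make cholesterol from acetyl-CoA through mevalonate, farnesyl diphosphate and squalene. When membrane sterol is low, the escort protein SCAP carries the SREBP transcription factors from the endoplasmic reticulum to the Golgi, where they are cut and freed to switch on these enzymes, and the INSIG proteins hold the SCAP complex back when sterol is plentiful. Fatty acid synthesis shares the acetyl-CoA supply and is largely under SREBP1, and an excess of oxysterols instead activates LXR, which raises the cholesterol exporters ABCA1 and ABCG1. In the ovary, granulosa cells and steroidogenic cells use this pathway for membranes and hormones, and the mammalian oocyte is known to depend on its somatic cells for part of its cholesterol.

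The libraries were not alike in the cells they represented, and this touches the results below. Total estimated counts were 22174653 to 36703016, and 13163 to 15145 genes had at least 10 counts. All 14 oocyte markers and all 8 granulosa markers were above 0 TPM (transcript abundance scaled for length and depth) in every library. Of these, DPPA3 in T16 replicate 2 and WNT6 in T16 replicate 1 had only 1 count each. However, the summed oocyte markers were 55.97 TPM in T16 replicate 2, against 2074 and 843 TPM in T16 replicates 1 and 3, and 513 TPM in T0 replicate 1 against 2330 and 3311 TPM in T0 replicates 2 and 3. BMP15 had 0.533 TPM in T16 replicate 2 and 36.7 to 224 TPM in the others. Summed granulosa markers were highest in T16 replicate 2 (2817 TPM, against 711 to 1980 TPM elsewhere), where KRT18 alone held 1341 TPM. KRT18, GATA4, KITLG and FST were highest in that library, while FOXL2, WNT6, AMH and INHA were highest in T0 replicate 2. In T16 replicate 2, FOXL2 (20.1 TPM) and WNT6 (15.1 TPM) lay below every T0 library. The steroidogenic list (CYP17A1, STAR, CYP11A1, HSD3B1 and INSL3) went from 54.7 TPM in T16 replicate 1 to 3655 TPM in T0 replicate 1, and of its theca markers CYP17A1 was 0 to 2.85 TPM and INSL3 38.6 to 159 TPM at T0 and 8.75 to 33.7 TPM at T16. In bulk RNA, fewer cells of a type and less RNA per cell cannot be told apart.

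No sterol or fatty acid gene passed the test between T16 and T0. By the quasi-likelihood test of edgeR, with p adjusted over all 14639 tested genes, 0 of the 32 genes were called higher (background 0.0342%) and 0 lower (background 0.00683%, or 0.041% in both directions). Their adjusted p ran from 0.126 to 0.984. At an unadjusted p under 0.05, 4 genes were on the higher side (background 8.61%) and 1 on the lower side (background 5.14%), together 15.6% of the list, where 13.8% of all tested genes reached it. DESeq2 called 3 genes higher, HMGCS1, GGPS1 and CYP51A1 (background 4.06%), and 1 lower, INSIG2 (background 2.96%), and gave no adjusted p for TM7SF2. Each of the 4 calls of DESeq2 was lost when certain single libraries were left out, and all were lost without T0 replicate 2. CYP51A1 was also not called without T16 replicate 3, and GGPS1 not without T0 replicate 3 or T16 replicate 1. HMGCS1 was not called without T0 replicate 1, T16 replicate 2 or T16 replicate 3, and INSIG2 not without T0 replicate 1, T0 replicate 3 or T16 replicate 2. TPM of every T16 library lay above every T0 library in 2 of the 32 genes (background 11.5%) and below in 2 (background 11.6%), so the list held no more separated genes than the rest of the transcriptome.

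The median of the list lay above 0, and it rested on a single library. The median log2 fold change of T16 against T0 was 0.50 over the 32 genes, with 20 of them positive, beside -0.08 over all tested genes, of which 46.6% were positive. Without T16 replicate 2 the median was 0.00066 and 16 of 31 genes were positive, and without both T0 replicate 1 and T16 replicate 2 it was -0.11 with 14 of 31 positive. T16 replicate 2 was the highest of all 6 libraries in 20 of the 32 genes (62.5%), where 17.3% of tested genes were highest there. Within T16 it was the highest library in 26 of the 32 (background 37.6%), and its TPM was a median of 2.89 times the mean of the other T16 libraries. T16 replicate 1 was the highest of T16 in 5 genes (background 43.8%) and T16 replicate 3 in 1 (background 18.6%). Of all 6 libraries, T0 replicate 3 was the highest in 7 genes (background 20.8%), T0 replicate 1 in 3 (background 13.9%) and T16 replicate 1 in 2 (background 23.3%). T16 replicate 2 is also the library with the lowest summed oocyte markers and the highest summed granulosa markers, a sum in which KRT18 held 1341 TPM. Single granulosa markers were not all highest there, and the part of cell content in the result was not tested.

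**Figure D1:**
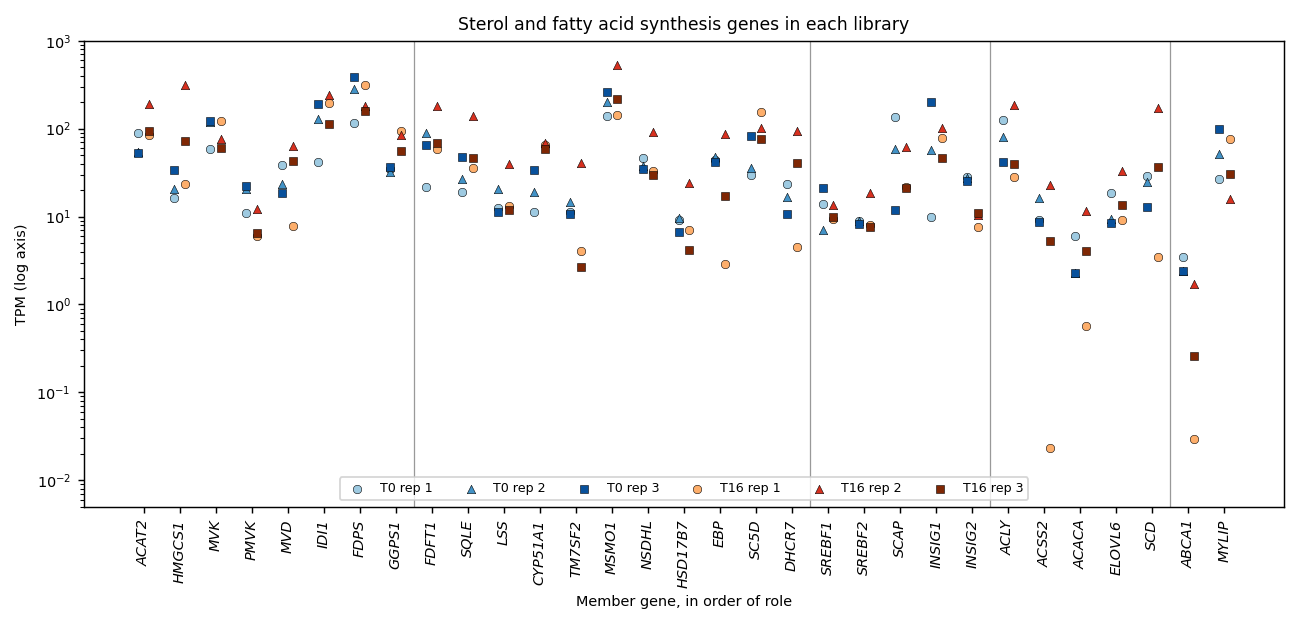
TPM of 31 genes in each library on a log axis, with T0 libraries in blue at the left and T16 libraries in orange to brown at the right of each gene, and vertical lines between the roles; ABCG1, at 0 in part of the libraries, is left out. Red triangles, T16 replicate 2, are the top point for 20 genes, while the points of CYP51A1, GGPS1, INSIG2 and ABCA1 form groups that do not overlap between T0 and T16.

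The mevalonate pathway turns acetyl-CoA into the isoprenoid farnesyl diphosphate. Its 8 genes had a median log2 fold change of 0.67, or 0.34 without T16 replicate 2, with 5 of the 8 positive and 0 called by edgeR. HMGCS1 (NCBI Gene 407767), the synthase that commits acetoacetyl-CoA to the pathway, had 16.5, 20.5 and 33.9 TPM in T0 replicates 1, 2 and 3 and 23.6, 316 and 72.1 TPM in T16 replicates 1, 2 and 3. The groups overlapped, since T16 replicate 1 lay between T0 libraries, while T16 replicate 2 stood 6.61 times above the mean of the other T16 libraries. The log2 fold change was 2.65 (SE 0.88, edgeR adjusted p = 0.24; DESeq2 adjusted p = 0.0304), the largest of the list, and 1.29 without T16 replicate 2. Over the alternatives to this fit, the adjusted p of HMGCS1 by edgeR or limma ran from 0.176 to 0.730.

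GGPS1 (NCBI Gene 780882), which makes geranylgeranyl diphosphate for the prenylation of small GTPases rather than for sterol, was the steadiest gene of this branch. It had 35.2, 32.4 and 36.4 TPM at T0 and 94.9, 83.8 and 56.0 TPM at T16. Every T16 library lay above every T0 library, and the highest was T16 replicate 1. Both annotated transcripts were higher in every T16 library, the main one at 26.9 to 31.0 TPM at T0 and 48.6 to 84.5 TPM at T16. The log2 fold change was 1.16 (SE 0.30, edgeR adjusted p = 0.147; DESeq2 adjusted p = 0.018), and leaving out any 1 library gave 0.98 to 1.24. The upstream enzyme FDPS, which makes the farnesyl diphosphate that GGPS1 extends, had 116, 286 and 385 TPM at T0 and 315, 182 and 158 TPM at T16. The TPM of FDPS was 3.30, 8.84 and 10.6 times that of GGPS1 at T0 and 3.32, 2.17 and 2.82 times at T16, so T0 replicate 1 and T16 replicate 1 were nearly equal and the groups overlapped there. This pair was set side by side after its values were seen.

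Among the other mevalonate genes, ACAT2, which makes acetoacetyl-CoA in the cytosol, averaged 65.8 TPM (SD 20.9, n = 3) at T0 and 122 TPM (SD 58.8, n = 3) at T16. IDI1, the isomerase of the isoprene units, averaged 120 TPM (SD 75.3, n = 3) and 183 TPM (SD 64.6, n = 3). The kinase MVK averaged 100.2 TPM (SD 35.4, n = 3) at T0 and 86.1 TPM (SD 31.8, n = 3) at T16, and the decarboxylase MVD 27.0 TPM (SD 10.8, n = 3) and 38.0 TPM (SD 28.0, n = 3). PMVK, the kinase between them, went the other way from most of the pathway, with 11.1, 20.7 and 22.2 TPM at T0 and 6.08, 12.2 and 6.55 TPM at T16 (log2 fold change -1.43, SE 0.62, edgeR adjusted p = 0.37). The neighbouring steps MVK, PMVK and MVD therefore had log2 fold changes of -0.11, -1.43 and 0.59, none past the threshold.

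The 11 enzymes from squalene to cholesterol were the largest group by role. Their median log2 fold change was 0.68 and 10 of the 11 were positive, although edgeR called 0. Without T16 replicate 2 the median was 0.07 with 6 of the 11 positive, and that library was the highest of all 6 in 10 of the 11 genes. The exception was SC5D, which was highest in T16 replicate 1. Summed over the 11 genes, T0 replicates 1, 2 and 3 had 368.5, 517 and 609 TPM, and T16 replicates 1, 2 and 3 had 523, 1392 and 571 TPM, so that T16 replicates 1 and 3 lay within the range of T0.

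CYP51A1 (NCBI Gene 505060), the demethylase of lanosterol and the first step after the sterol ring is closed, had the most even levels at T16. It had 11.4, 19.0 and 33.7 TPM at T0 and 64.7, 68.7 and 58.0 TPM at T16. The T16 libraries were within 1.19 times of each other, the closest of the 31 genes above 0 in all libraries, and each lay above every T0 library. The log2 fold change was 1.74 (SE 0.40, edgeR adjusted p = 0.126; DESeq2 adjusted p = 0.0152), the lowest edgeR adjusted p of the list. It was 1.72 without T16 replicate 2 and 1.47 without both T0 replicate 1 and T16 replicate 2, and over the alternatives the adjusted p by edgeR or limma ran from 0.111 to 0.641.

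SC5D, the desaturase near the end of the pathway, had 30.0, 36.1 and 82.5 TPM at T0 and 156, 103 and 75.4 TPM at T16. T0 replicate 3 exceeded T16 replicate 3, so the groups overlapped. The log2 fold change was 1.31 (SE 0.42, edgeR adjusted p = 0.23), and 1.37 without T16 replicate 2. SQLE, the squalene epoxidase that is a second rate-limiting enzyme of the pathway, had 19.1, 26.5 and 48.0 TPM at T0 and 35.9, 139 and 46.2 TPM at T16, a log2 fold change of 1.33 (SE 0.57, edgeR adjusted p = 0.367) that was 0.60 without T16 replicate 2. DHCR7, which makes cholesterol in the last step, had 23.7, 16.8 and 10.7 TPM at T0 and 4.56, 93.0 and 40.4 TPM at T16, so T16 held both its lowest and its highest libraries.

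The remaining sterol enzymes showed T16 replicate 2 apart from all other libraries. MSMO1, a methyl oxidase, was the most abundant sterol enzyme after squalene at 200.2 TPM (SD 62.2, n = 3) at T0 and 294 TPM (SD 203, n = 3) at T16, with 524 TPM in T16 replicate 2. FDFT1, the squalene synthase, had 182 TPM there and 59.4 and 68.5 TPM in the other T16 libraries, and LSS, which closes the ring, 39.4 TPM against 13.2 and 11.8 TPM. The sterol reductase TM7SF2 had 40.5 TPM in T16 replicate 2 and 4.05 and 2.70 TPM in T16 replicates 1 and 3, both below its T0 range of 10.8 to 14.8 TPM. The isomerase EBP was even at T0, with 41.5 to 47.7 TPM, and spanned 2.88, 87.5 and 17.3 TPM at T16. NSDHL and HSD17B7, which act together in removing sterol methyl groups, had 90.4 and 24.0 TPM in T16 replicate 2 against at most 33.3 and 7.02 TPM in the other T16 libraries.

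**Figure D2:**
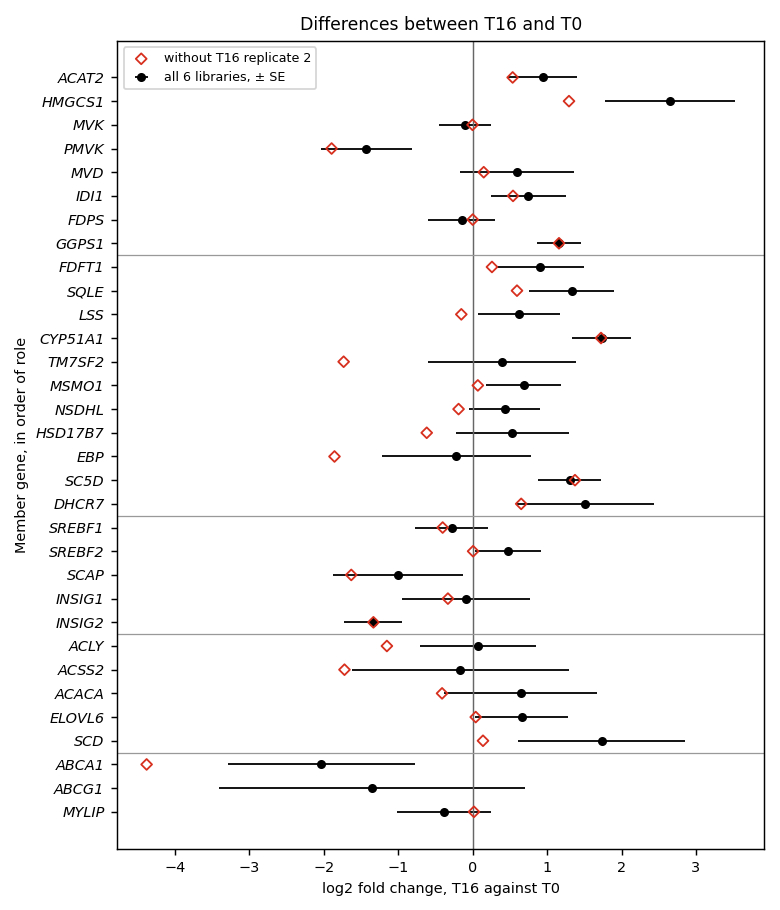
Log2 fold change of T16 against T0 for the 32 matched genes, ordered by role; black points are the edgeR fit on all 6 libraries with SE and red diamonds the fit without T16 replicate 2, in which ABCG1 was not tested. CYP51A1, GGPS1, SC5D and INSIG2 keep nearly the same value in both fits, while HMGCS1, SQLE, TM7SF2, EBP and SCD lie lower without that library.

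The regulators had values of both signs. The 5 genes had a median log2 fold change of -0.28, 1 was positive, and edgeR called 0. SREBF2, which encodes the SREBP that mainly drives sterol genes, had 8.88, 8.87 and 8.34 TPM at T0, the closest T0 group of the 31 genes above 0 in all libraries, and 8.03, 18.5 and 7.65 TPM at T16. Apart from T16 replicate 2 the values at T16 were slightly below those at T0. SREBF1, whose products mainly drive fatty acid genes, had 14.0, 7.08 and 21.3 TPM at T0 and 9.49, 13.7 and 9.98 TPM at T16. All T16 libraries lay within the T0 range. SREBP activity depends on cleavage of the protein, which RNA does not measure.

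SCAP, the sterol-sensing escort of SREBP, had 137, 59.1 and 12.0 TPM at T0 and 21.7, 62.4 and 21.1 TPM at T16. The T0 libraries alone spanned 11.4-fold, and the log2 fold change of -0.998 (SE 0.87, edgeR adjusted p = 0.698) was 0.15 without T0 replicate 1. At both times SCAP was highest in the library with the lowest oocyte markers, and the part of this in its values was not tested.

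The retention factors INSIG1 and INSIG2 had unlike spreads in these libraries. INSIG1, an SREBP target in many cells, had 9.96, 56.9 and 203 TPM at T0 and 77.7, 102 and 45.8 TPM at T16. Its T0 range of 20.4-fold was the widest of the 31 genes above 0 in all libraries and enclosed all 3 T16 libraries. The log2 fold change was -0.09 (SE 0.85, edgeR adjusted p = 0.982). INSIG2 (NCBI Gene 534440), which is not itself driven by SREBP in most cells, had 27.9, 27.2 and 25.1 TPM at T0 and 7.70, 10.4 and 10.98 TPM at T16. Every T16 library lay below every T0 library, and both groups were tight, with highest-to-lowest ratios of 1.11 and 1.43. The log2 fold change was -1.34 (SE 0.39, edgeR adjusted p = 0.189; DESeq2 adjusted p = 0.0156), and it stayed between -1.57 and -1.21 with any 1 library left out. It was -1.33 without T16 replicate 2.

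Both annotated transcripts of INSIG2 were lower at T16. The more abundant one had 22.8, 20.3 and 17.8 TPM at T0 and 7.70, 9.55 and 8.15 TPM at T16, and the other had 5.19, 6.89 and 7.35 TPM at T0 and 0, 0.825 and 2.83 TPM at T16. How Salmon divides reads between such overlapping transcripts is uncertain, and only their sum was tested. The ratio of INSIG1 to INSIG2 TPM was 0.356, 2.09 and 8.11 at T0 and 10.1, 9.85 and 4.17 at T16. T16 replicate 3 lay between T0 replicates 2 and 3, so the ratio did not separate the groups. It was computed after the values were seen.

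The genes of fatty acid synthesis varied widely between libraries of the same time point. The median log2 fold change of the 5 measured genes was 0.64, with 4 positive and 0 called by edgeR, and it was -0.41 with 2 positive without T16 replicate 2. In all 5 genes T16 replicate 2 was the highest of the 6 libraries and T16 replicate 1 the lowest of T16. Summed TPM was 187, 132 and 74.0 in T0 replicates 1, 2 and 3 and 41.6, 427 and 98.9 in T16 replicates 1, 2 and 3. Within each time point this order was the reverse of that of the oocyte marker sums. It was the same as that of the steroidogenic, smooth muscle and endothelial marker sums, but not of all their single markers. CYP11A1, HSD3B1, TAGLN, CNN1 and CLDN5 had this order, and CLDN5 held 382, 228 and 13.6 TPM of the endothelial sums at T0. TEK (1.65, 6.66 and 6.86 TPM) and INSL3 (38.6, 108 and 159 TPM) rose across the T0 replicates. STAR was highest of T16 in replicate 3, and ACTA2 and MYH11 highest of T0 in replicate 2. The granulosa sums also had the order of the fatty acid genes, but at T0 KRT18 held 1277, 349 and 63.3 TPM of them. Among T0 libraries FOXL2, WNT6, AMH, FST and INHA were highest in replicate 2, and KRT18, GATA4 and KITLG in replicate 1. The stromal sums had the order of the fatty acid genes at T0 but were highest in T16 replicate 3 at T16. The part of these cell types in the result was not tested.

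SCD, the desaturase that makes oleate, had 28.9, 24.4 and 12.7 TPM at T0 and 3.49, 172 and 36.9 TPM at T16. The T16 libraries spanned 49.4-fold, and the log2 fold change of 1.73 (SE 1.12, edgeR adjusted p = 0.574) was 0.14 without T16 replicate 2. ACLY, which supplies cytosolic acetyl-CoA from citrate, had 125, 80.1 and 41.9 TPM at T0 and 28.4, 187 and 39.1 TPM at T16, with a log2 fold change of 0.07 (SE 0.78, edgeR adjusted p = 0.984). Its 2 lower T16 libraries were below all of T0. ACSS2, which makes acetyl-CoA from acetate, had 8.64 to 16.1 TPM at T0, but 1 count in T16 replicate 1 and 924 and 371 counts in T16 replicates 2 and 3, of 28942906, 25761986 and 36703016 total counts.

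ACACA, the carboxylase that commits acetyl-CoA to fatty acid synthesis, averaged 3.52 TPM (SD 2.14, n = 3) at T0 and 5.36 TPM (SD 5.57, n = 3) at T16. The elongase ELOVL6 averaged 12.1 TPM (SD 5.46, n = 3) and 18.5 TPM (SD 12.7, n = 3). For both genes the SD at T16 exceeded the difference between the means.

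**Figure D3:**
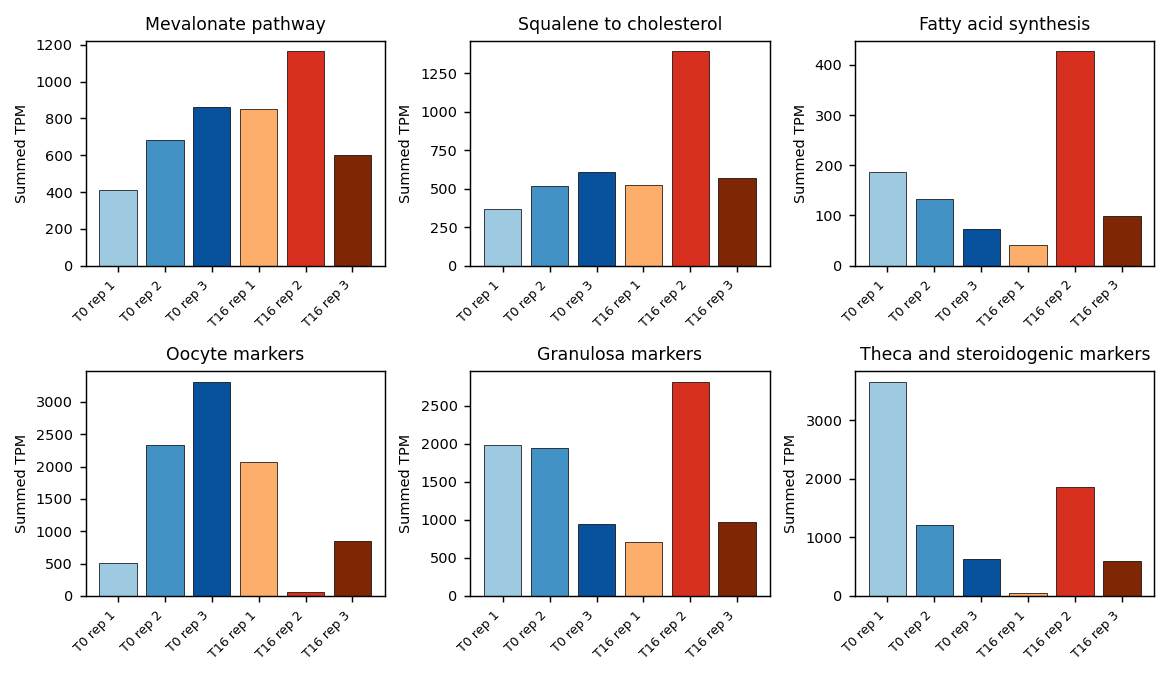
Summed TPM in each library of 3 gene groups of the list (top row) and of 3 lists of cell type markers (bottom row), with bars starting at 0. The fatty acid synthesis bars fall from 187 to 74.0 TPM across the T0 libraries and reach 427 TPM in T16 replicate 2, while the oocyte marker bars run in the opposite order within each time point.

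The exporters ABCA1 and ABCG1 had low values, unlike MYLIP, and all 3 genes of this group had a negative log2 fold change with 0 called by edgeR. ABCA1, which loads cholesterol onto apolipoprotein acceptors, had 3.43, 2.39 and 2.42 TPM at T0 and 0.0294, 1.71 and 0.258 TPM at T16, from 562, 474 and 356 counts and from 5, 257 and 47 counts. Every T16 library lay below every T0 library, yet the T16 libraries spanned 58.1-fold. The log2 fold change was -2.04 (SE 1.26, edgeR adjusted p = 0.549; DESeq2 adjusted p = 0.34). Without T16 replicate 2 it was -4.38 (edgeR adjusted p = 0.122), and DESeq2 then called it lower (adjusted p = 7.82e-05). ABCG1, a second exporter, had 0, 42 and 52 counts at T0 and 2, 28 and 0 counts at T16, so that 3 of the 6 libraries were below the floor of 3 counts. A count of 0 allows up to 0.122 CPM (counts scaled to library size) in T0 replicate 1 and 0.0906 CPM in T16 replicate 3, for counting error only.

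MYLIP, an LXR-induced ubiquitin ligase that marks lipoprotein receptors for degradation, had 26.7, 51.4 and 98.3 TPM at T0 and 77.3, 15.7 and 30.6 TPM at T16. T16 replicate 2 lay below every T0 library and the other T16 libraries within the T0 range, with a log2 fold change of -0.38 (SE 0.63, edgeR adjusted p = 0.858). In contrast to most of the list, its lowest library was T16 replicate 2, and in each time point it ran in the order of the oocyte markers, whose part in this was not tested.

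Relative to each gene's own mean, T16 replicate 2 stood above and T16 replicate 1 below the rest of the libraries. The median over the 32 genes of log2 CPM minus the gene's mean over the 6 libraries was 1.17 in T16 replicate 2, with 28 genes above their mean, and -0.60 in T16 replicate 1, with 8 above. The T0 libraries had 0.18, -0.16 and -0.08, and T16 replicate 3 had -0.02. The same median over all tested genes was 0.03 to 0.13 in every library. The members spread more at T16 than at T0, with a median highest-to-lowest ratio of 3.33 against 2.13 over the 31 genes above 0 in all libraries. No test of this difference was made, and the ratio was not taken over all genes. Across genes, log2 CPM correlated at 0.81 to 0.90 between T16 libraries and at 0.88 to 0.94 between T0 libraries.

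**Figure D4:**
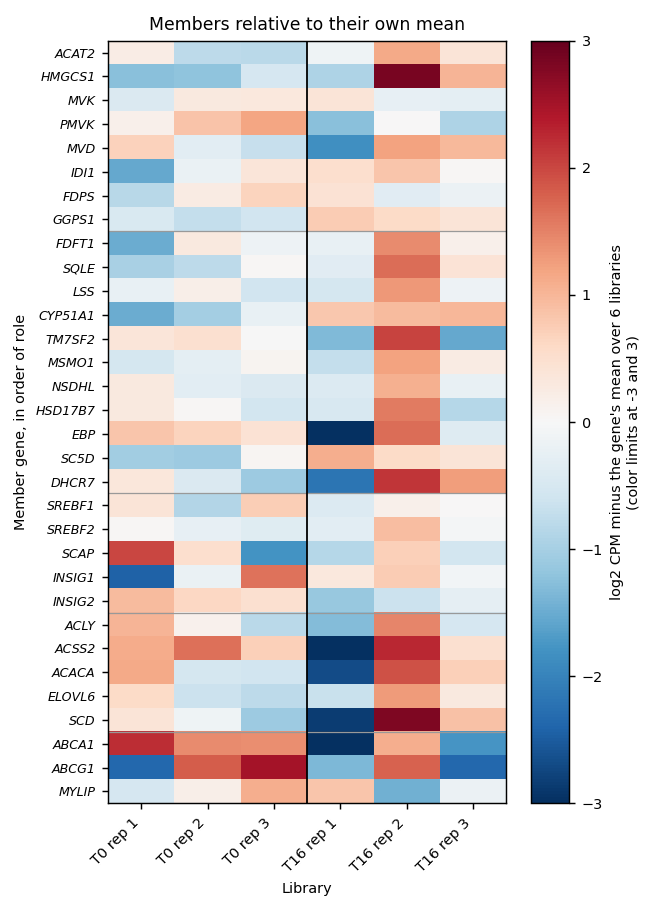
Log2 CPM of the 32 matched genes in each library minus the gene's mean over the 6 libraries, with red above and blue below the mean and color limits at -3 and 3; the black line divides T0 from T16. The column of T16 replicate 2 is red for 28 genes and that of T16 replicate 1 for 8, while the rows of CYP51A1, GGPS1 and INSIG2 change color at the line.

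Other genes of lipid metabolism, are given from a list of 40 set by role. Of these, 39 were tested, and edgeR called 0 in either direction, with 3 on the higher side (background 8.61%) and 4 on the lower side (background 5.14%) at an unadjusted p under 0.05. DESeq2 called 0 higher (background 4.06%) and 3 lower (background 2.96%), which were CH25H, CYP27A1 and ACACB. Every T16 library lay above every T0 library in 4 of the 39 genes (background 11.5%) and below in 5 (background 11.6%). The median log2 fold change was 0.14.

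CH25H, which makes an oxysterol that holds SREBP in the endoplasmic reticulum, had 17.0, 21.4 and 22.8 TPM at T0 and 1.11, 2.69 and 0.743 TPM at T16 (log2 fold change -3.68, SE 0.67, edgeR adjusted p = 0.0921). CYP27A1, a mitochondrial sterol hydroxylase that also makes an oxysterol, had 94.2, 81.8 and 48.2 TPM at T0 and 10.2, 37.9 and 14.2 TPM at T16 (log2 fold change -1.78, SE 0.59, edgeR adjusted p = 0.237). These enzymes of oxysterol synthesis had every T16 library below every T0 library. Over the alternatives by edgeR or limma, CH25H had an adjusted p between 0.0369, by limma on log2(TPM + 1), and 0.442, by edgeR without T0 replicate 2. ACACB, the mitochondrial counterpart of ACACA, had 55, 57 and 149 counts at T0 and 0 counts in every T16 library.

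The lamin B receptor LBR, which also carries a sterol reductase activity, had 44.9, 54.1 and 75.4 TPM at T0 and 24.2, 33.8 and 18.8 TPM at T16, and the lysosomal cholesterol carrier NPC2 had 98.9, 123 and 115 TPM and 27.4, 80.0 and 56.0 TPM (edgeR adjusted p = 0.22 and 0.424). On the higher side were HSD17B12, a reductase of fatty acid elongation, with 69.8, 42.6 and 37.3 TPM at T0 and 109, 118 and 74.9 TPM at T16, the acyl-CoA synthetase ACSL3 and the sterol transfer protein OSBP (edgeR adjusted p = 0.288, 0.306 and 0.374). The log2 fold changes of HSD17B12, ACSL3 and OSBP were 1.06, 0.81 and 1.10. CH25H, CYP27A1, LBR, NPC2, HSD17B12, ACSL3 and OSBP were named because their groups did not overlap. None of these 7 genes passed the threshold by edgeR.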

How the data were processed

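Reads had been trimmed (Trim Galore, fastp) and quantified by the authors with Salmon against the bovine transcriptome ARS-UCD1.3. They deposited, per library and RefSeq transcript, the estimated counts (estimated reads, not normalized), TPM and transcript lengths. Both were summed here to gene symbols using RefSeq accessions of a newer assembly (ARS-UCD2.0), so no coordinates are given; 50205 of 76123 transcripts matched, and the unmatched held 9.74% to 10.9% of a library's counts. Reads shared with near-identical copies or antisense genes could not be separated. Promoter and protein sequences were not used here.

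Summed estimated counts were rounded and tested with edgeR 4.0.16 in R 4.3.3 (TMM, quasi-likelihood test, genes reaching 10 counts in 3 or more libraries, Benjamini-Hochberg over all tested genes, FDR below 0.05); the SE is the log2 fold change divided by the square root of F. DESeq2 1.42.0 and limma 3.58.1, on log2 of TPM plus 1 or 0.1 for genes of at least 1 TPM in 3 libraries, were alternatives. Same-group libraries differed far beyond sampling noise (chi-square per degree of freedom at least 140) and were kept as separate samples. The floor of a count of 0 is 3 counts per library.

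All 34 genes are accounted for. TPM is given in every library for genes whose groups did not overlap, genes with an unadjusted p under 0.05 and the regulators; for SQLE, DHCR7, SCD, ACLY, PMVK, FDPS and MYLIP, this was decided after their values were seen. Of the other genes of lipid metabolism, up to 8 with groups that did not overlap and an average log2 CPM of at least 3 are named, beside those DESeq2 called. The genes, lists and tests were chosen with earlier results of these data known.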

Additional observations from a re-analysis of the deposited data

How the results depend on the processing

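With edgeR, 0 members were called higher or lower under each of its alternative fits, and likewise with limma on log2 TPM. DESeq2 called 3 higher and 1 lower. With 1 library left out, a choice added after the data were seen, DESeq2 called 0 to 4 members higher and 0 to 3 lower, and 2 higher (CYP51A1 and GGPS1) and 2 lower (ABCA1 and PMVK) without T0 replicate 1 and T16 replicate 2. Of all genes it called 2.28% to 10.9% with 1 library left out and 11.8% without both. Without T0 replicate 2 it called 0 in either direction. INSIG2 was not called by it without any 1 of the T0 libraries or without T16 replicate 2, and HMGCS1 not without T16 replicate 2, T16 replicate 3, T0 replicate 1 or T0 replicate 2. The median of the members was 0.19 to 0.46 under other scalings, filters and tools, and 0.00066 to 0.71 with 1 library left out. The median of all genes moved from -0.08 to between -0.24 and 0.02.

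Among all genes, edgeR called 5 higher and 1 lower. These were 0 and 0 with the replicate block and without both libraries, 0 to 2 higher and 0 to 1 lower with 1 library left out, 594 and 433 by DESeq2, 90 and 45 by limma on log2(TPM + 1) and 34 and 17 on log2(TPM + 0.1). The lower ones were 4 without the count filter and 2 with at least 50 counts. Deviations of same-numbered libraries correlated at -0.44, -0.12 and -0.0047 across genes, and those of differently numbered libraries at -0.40 to 0.44. As the libraries also differed in the cells they represented, these values cannot decide whether the replicate numbers pair the libraries. The block left 0 members called.

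Of the 32 members, 16 changed sign under some alternative, none of them called by edgeR. One of these, TM7SF2, was called lower by DESeq2 without T16 replicate 2, with ABCA1 and PMVK, while its value over all libraries was 0.39. With the block, TM7SF2 was -0.65, INSIG1 0.72 and ACLY -0.16. With log2(TPM + 1) these were -0.53, 0.52 and -0.33, and with log2(TPM + 0.1) they were -0.66, 0.55 and -0.34, with ACACA at -0.034. Without both libraries, FDFT1 was -0.11, LSS -0.19, TM7SF2 -1.70, MSMO1 -0.073, HSD17B7 -0.43 and ACLY -0.59. With any 1 library, or both of these, left out, values ran from -0.41 to 1.44 for ACACA, -1.15 to 0.64 for ACLY, -1.78 to 0.34 for ACSS2, -1.86 to 0.26 for EBP, -0.11 to 1.17 for FDFT1, -0.56 to 0.15 for FDPS, -0.62 to 0.91 for HSD17B7, -0.86 to 1.21 for INSIG1, -0.19 to 0.86 for LSS, -0.073 to 0.93 for MSMO1, -0.47 to 0.011 for MVK, -1.22 to 0.10 for MYLIP, -0.19 to 0.68 for NSDHL, -1.63 to 0.15 for SCAP, -0.72 to 0.078 for SREBF1 and -1.73 to 0.87 for TM7SF2. The cause was not tested. The values of ABCG1 in the libraries with 0 or 2 counts, and of ACSS2 and ABCA1 in T16 replicate 1, at 1 and 5 counts, rest on few reads.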
